A study of Homo sapiens with 9 samples.

Results

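A set of 9 transcription factors of epithelial differentiation were followed in human mammary cells that carried deltaNp63beta, deltaNp63alpha or an empty vector. They were the grainyhead-like factors GRHL1, GRHL2 and GRHL3, the zinc finger repressors OVOL1 and OVOL2, the ETS factors ELF3 and EHF, the zinc finger factor ZNF750 and the AP-2 factor TFAP2A. They were chosen by name from 41857 gene IDs, with earlier results of these data known, and each name matched 1 Ensembl gene ID. Of the 9, 8 passed the filter for testing, values of 10 or more in 3 or more libraries, and GRHL2 did not. The cells were MCF10A, an immortal mammary epithelial line that does not form tumours, in medium with horse serum, epidermal growth factor, hydrocortisone, cholera toxin and insulin. There were 3 libraries each with human deltaNp63beta, human deltaNp63alpha and vector only, given as biological triplicates and, in the genotype label, as WT. Doxycycline was given to all 9 cultures at 500 ng/mL over 24 h, also to those with vector, so every comparison was between cultures with the drug. Poly(A) RNA was sequenced, and the sources used here do not give the promoter of the transgenes or whether each line was a clone or a pool.

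Grainyhead-like factors bind DNA as dimers and switch on genes of cell junctions, surface proteases and the epidermal barrier. OVOL factors repress genes of the mesenchymal state, among them ZEB1, and ZEB and SNAI proteins in turn repress epithelial genes through E-box sequences. ELF3, EHF and ZNF750 are induced as keratinocytes and other epithelial cells differentiate, TFAP2A is a factor of the surface ectoderm, and p63 itself maintains the basal layer of stratified epithelia. The deltaN isoforms of p63 lack the N-terminal transactivation domain, and alpha and beta differ in their C-terminal ends.

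The values are normalized estimated counts per gene, called values below. Their totals were 22.5 to 23.2 M per library, and the spacing of the low values put the depth at about 20.3 to 24.4 M fragments per library. TP63, measured as 1 gene so that transgene and endogenous RNA are summed, was at 4183 to 6719 in deltaNp63beta libraries and at 4426 to 6983 in deltaNp63alpha libraries, against 259.3 to 332.0 in vector libraries. The TP63 difference between deltaNp63beta and deltaNp63alpha was -0.22 ± 0.21 on the log2 scale (limma adjusted p = 0.479; 95% interval -0.70 to 0.27). All 8 basal epithelial markers reached a value of 10 in some library, and so did all 8 luminal markers. PGR, on the luminal list, failed the filter for testing, at 2.06, 0 and 0 in deltaNp63beta libraries and at 48.3 in vector replicate 2. TYR, which defines melanocytes, was listed at 0 in all 9 libraries, and the leukocyte markers PTPRC and CD3E reached no more than 4.22 and 2.04. Other genes of these lists were present, among them MITF at 224.02 to 347.9, PMEL at up to 45.3 and MLANA at up to 32.6 on the melanocyte list, and CSF1R and CD14 on the leukocyte list.

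All 8 tested factors were higher with deltaNp63beta than with vector, and in each of them every deltaNp63beta library lay above every vector library. Over all 15108 genes tested, 41.3% were called in that comparison, 21.8% were called higher, and 26.2% had every deltaNp63beta library above every vector library. The share of all genes with groups apart was not computed for any other pair of groups. Statements below that such groups did not overlap are therefore a description only. ZNF750 reached 10 only in the 3 deltaNp63beta libraries and OVOL1 in 2 of them and 1 deltaNp63alpha library. Both thus passed the filter through libraries in which they were high, and the counts and medians over the 8 factors are a description only. With deltaNp63alpha 1 factor, OVOL2, was called higher than with vector and 1, ELF3, lower, where 14.5% of all genes were called, 8.13% higher and 6.37% lower. Between the isoforms 6 of the 8 were higher with deltaNp63beta than with deltaNp63alpha, all but OVOL1 and OVOL2, where 32.9% of all genes were called and 17.4% were called higher. A call is a Benjamini-Hochberg adjusted p under 0.05 from limma, adjusted over all genes tested, and changes are log2 fold changes of value + 1 with their SE. The median change of the 8 factors was 2.28 for deltaNp63beta against vector, 0.25 for deltaNp63alpha against vector and 2.67 for deltaNp63beta against deltaNp63alpha. Over all genes tested, the medians of the same comparisons were -0.0048, -0.0059 and -0.00033. RNA was measured in bulk, so fewer cells with a transcript and less transcript per cell cannot be told apart. The comparisons of deltaNp63beta and deltaNp63alpha with vector share the 3 vector libraries.

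**Figure D1:**
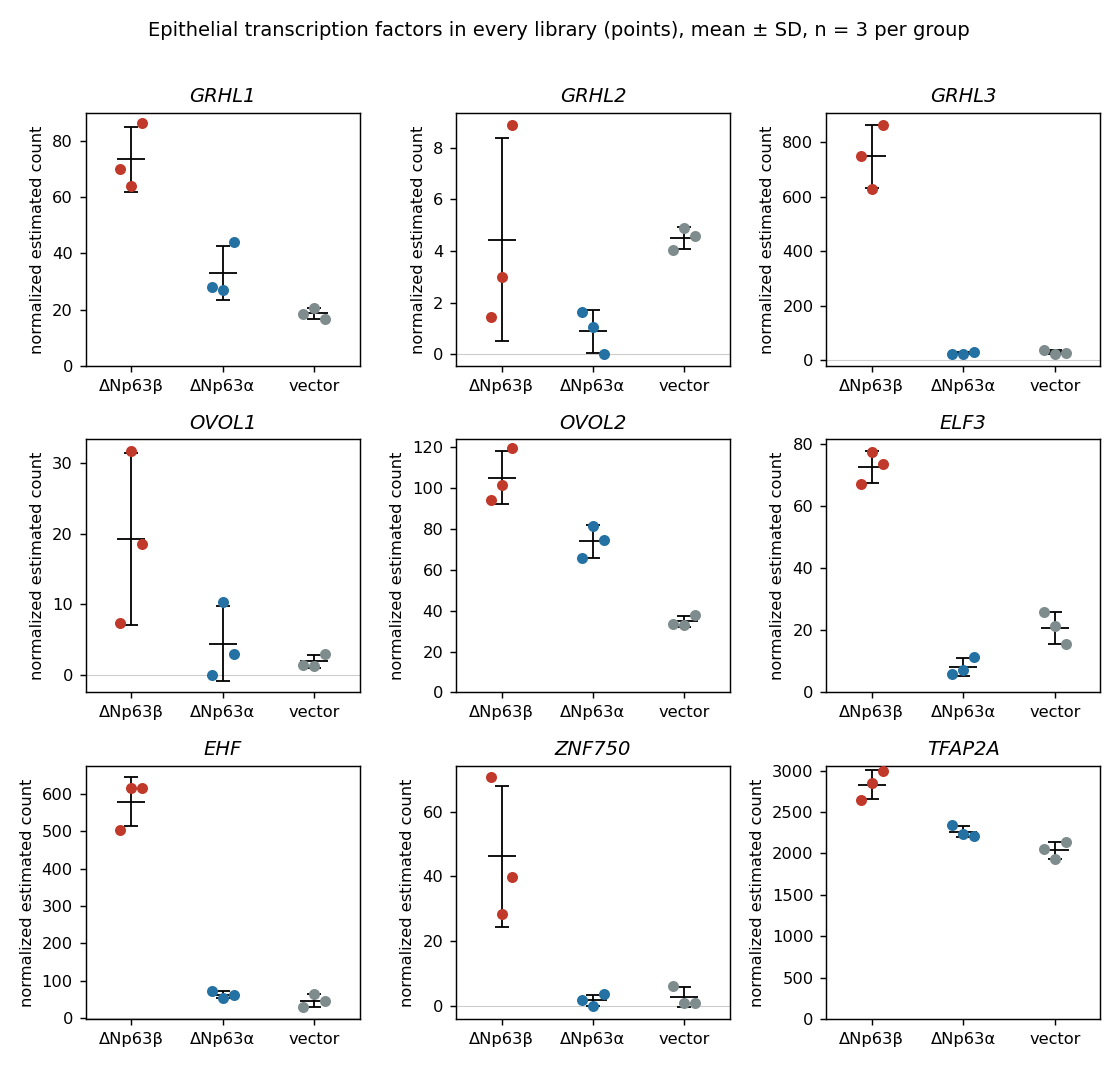
Value (normalized estimated count) of the 9 factors in each library, with the deltaNp63beta, deltaNp63alpha and vector groups from left to right, points for libraries and bars for the mean ± SD (n = 3 each). GRHL3, EHF, ELF3 and ZNF750 stand far above both other groups in the deltaNp63beta libraries, OVOL2 is raised with both isoforms, and GRHL2 stays below 10 in all 9 libraries.

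The start regions of GRHL3, EHF and ELF3 are shown because GRHL3 and EHF had the largest changes with deltaNp63beta among the factors with a window at hand, and ELF3 was called in opposite directions with the 2 isoforms. The E-box letters CACCTG, bound by ZEB and SNAI proteins, were searched in them. The windows are RefSeq promoters of build GRCh38.p14, 250 bases before to 50 after an annotated start, and capitals mark CACCTG, searched on both strands.
GRHL3, chr1:24319107-24319406, plus strand: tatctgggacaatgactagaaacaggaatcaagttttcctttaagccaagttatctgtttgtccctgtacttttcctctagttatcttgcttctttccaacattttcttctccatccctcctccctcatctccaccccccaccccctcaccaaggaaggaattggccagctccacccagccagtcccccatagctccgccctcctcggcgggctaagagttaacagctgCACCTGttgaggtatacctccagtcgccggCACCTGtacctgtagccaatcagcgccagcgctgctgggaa
ELF3, chr1:202010337-202010636, plus strand: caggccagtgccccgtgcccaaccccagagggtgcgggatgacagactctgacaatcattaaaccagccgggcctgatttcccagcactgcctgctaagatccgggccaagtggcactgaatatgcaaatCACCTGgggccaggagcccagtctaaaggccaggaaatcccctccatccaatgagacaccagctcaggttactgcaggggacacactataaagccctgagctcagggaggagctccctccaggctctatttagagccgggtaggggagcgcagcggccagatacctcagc
EHF, chr11:34624007-34624306, plus strand: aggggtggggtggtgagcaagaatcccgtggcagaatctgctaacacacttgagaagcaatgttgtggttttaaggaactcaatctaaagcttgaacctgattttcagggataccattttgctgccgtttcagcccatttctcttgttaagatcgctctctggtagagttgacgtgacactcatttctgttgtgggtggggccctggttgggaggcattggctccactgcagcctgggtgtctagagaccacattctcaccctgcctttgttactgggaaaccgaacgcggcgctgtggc
The GRHL3 window shown held CACCTG at 2 places, beginning 21 bases before and 9 bases after the start. The ELF3 window held it once, 120 bases before the start, and the EHF window shown did not hold it. GRHL3 and EHF have 2 windows each, and the second window of either did not hold it. Of 35116 RefSeq windows of the same length, 20.6% held it on either strand. Windows were at hand for 5 of the 9 factors, GRHL1, GRHL3, ELF3, EHF and TFAP2A, 8 windows in all, and 2 of the 8 held CACCTG. The grainyhead-like letters AACNGGTT were in 0 of the 8 windows and in 1.73% of all windows. The p53 family core motif was in 7 of the 8 and in 74.0% of all windows, and no CACCTG match overlapped a match to it. These matches are letters in a window and not measured binding.

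GRHL3 (ENSG00000158055, GRCh38 chromosome 1, 24319322 to 24364482, plus strand), a grainyhead-like factor known for its part in forming the epidermal barrier, was the grainyhead-like gene most strongly raised with deltaNp63beta. Its values were 751.4, 630.2 and 863.9 in deltaNp63beta libraries, 23.2, 24.5 and 30.6 in deltaNp63alpha libraries, and 39.2, 23.5 and 25.8 in vector libraries. All 3 deltaNp63beta libraries lay above the other 6, while the deltaNp63alpha and vector libraries overlapped. The means were 748.5 ± 116.9 with deltaNp63beta, 26.1 ± 3.98 with deltaNp63alpha and 29.5 ± 8.46 with vector (SD, n = 3 each). The mean with deltaNp63beta was 25.4 times the mean with vector. GRHL3 was higher with deltaNp63beta than with vector by 4.64 ± 0.22 (limma adjusted p = 3.7e-08) and higher than with deltaNp63alpha by 4.79 ± 0.22 (limma adjusted p = 7.19e-08). For deltaNp63alpha against vector the change was -0.15 ± 0.22 (limma adjusted p = 0.737), with a 95% interval of -0.64 to 0.35. STPG1, which overlaps GRHL3 on the opposite strand, had means of 521.7 with deltaNp63beta, 458.6 with deltaNp63alpha and 386.8 with vector. Its change with deltaNp63beta against vector was 0.44 ± 0.10 (limma adjusted p = 0.00514).

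GRHL1 (ENSG00000134317, chromosome 2, 9951693 to 10002277, plus strand), a grainyhead-like factor known for its control of desmosomal cadherin genes in mice, rose less than GRHL3 with deltaNp63beta. It was at 69.9, 64.0 and 86.3 in deltaNp63beta libraries, at 27.9, 27.02 and 43.9 in deltaNp63alpha libraries, and at 18.6, 20.7 and 16.8 in vector libraries. The groups stood in 3 separate ranges, deltaNp63beta highest and vector lowest. The change was 1.91 ± 0.27 for deltaNp63beta against vector (limma adjusted p = 0.000186) and 1.16 ± 0.27 for deltaNp63beta against deltaNp63alpha (limma adjusted p = 0.00704). For deltaNp63alpha against vector it was 0.76 ± 0.27, which did not pass the test (limma adjusted p = 0.0927; 95% interval 0.16 to 1.35).

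GRHL2 (ENSG00000083307, on chromosome 8), which in many epithelia is the main grainyhead-like factor of the junction programme, had low values throughout. It was at 1.44, 3.003 and 8.89 in deltaNp63beta libraries, at 1.64, 1.04 and 0 in deltaNp63alpha libraries, and at 4.05, 4.88 and 4.57 in vector libraries. The deltaNp63alpha libraries all lay below the vector libraries, and the deltaNp63beta libraries ran from below to above them. GRHL2 failed the filter, so its changes come from a fit without the filter, in which none passed. They were -0.26 ± 0.66 for deltaNp63beta against vector (limma adjusted p = 0.850), -1.65 ± 0.66 for deltaNp63alpha against vector (limma adjusted p = 0.187) and 1.39 ± 0.66 for deltaNp63beta against deltaNp63alpha (limma adjusted p = 0.191). At values this low, each rests on a few fragments per library. In the annotation 3 genes overlap GRHL2 on the opposite strand, and of these AP001207.1 and AP001207.2 had a mean of 0 in every group.

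Set per kilobase of the median annotated protein-coding transcript, the grainyhead-like values can be added up and their makeup read. The sum of the 3 genes was 392.2, 332.2 and 456.0 per kb in deltaNp63beta libraries, 26.2, 26.2 and 37.8 per kb in deltaNp63alpha libraries, and 29.5, 23.4 and 22.3 per kb in vector libraries. GRHL3 made up 90.4%, 89.5% and 89.4% of the sum in deltaNp63beta libraries. Its share was 41.8%, 44.1% and 38.2% in deltaNp63alpha libraries and 62.7%, 47.4% and 54.6% in vector libraries. GRHL1 held 56.5%, 54.8% and 61.8% of the sum in deltaNp63alpha libraries, against 33.5%, 46.9% and 39.9% in vector libraries. GRHL3 was the larger part in all 3 deltaNp63beta libraries whichever length was used. In the deltaNp63alpha libraries the order of GRHL1 and GRHL3 depended on the length, since per kb of the longest transcript GRHL1 held 48.2%, 46.5% and 53.6% of the sum and GRHL3 49.8%, 52.3% and 46.4%. The share of GRHL2 was 0.0996% to 0.529% with deltaNp63beta, 0 to 1.69% with deltaNp63alpha and 3.73% to 5.65% with vector. Shares of 1 sum move together, so a larger GRHL3 share lowers the others without any change in them.

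**Figure D2:**
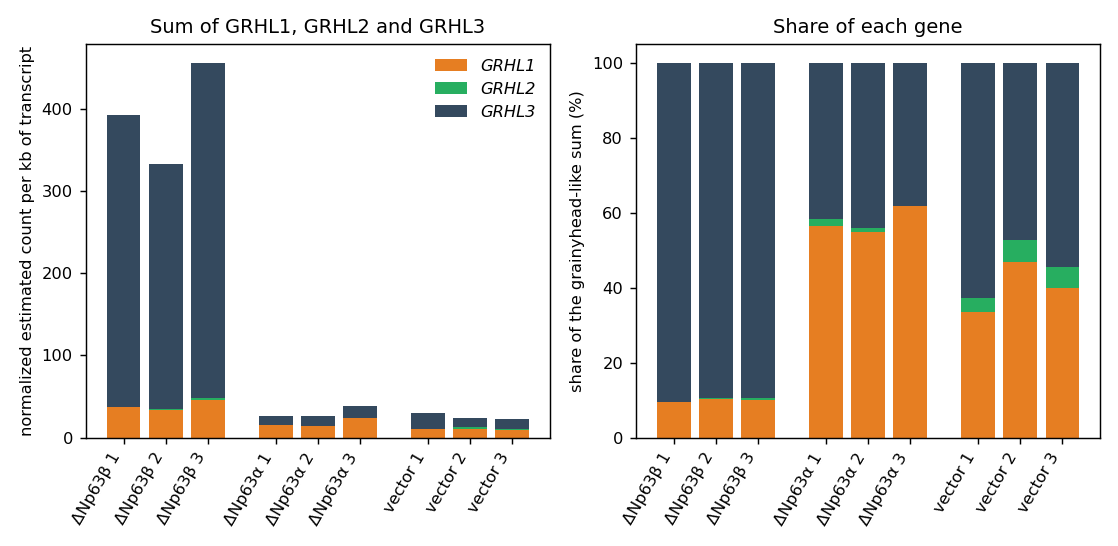
Left, sum of GRHL1, GRHL2 and GRHL3 in normalized estimated counts per kb of the median transcript, 1 bar per library, deltaNp63beta libraries first and vector libraries last. Right, the share of each gene in that sum in percent: GRHL3 makes up 89.4% to 90.4% in the deltaNp63beta libraries, and GRHL1 54.8% to 61.8% in the deltaNp63alpha libraries.

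OVOL2 (ENSG00000125850, chromosome 20, 17956979 to 18059188, minus strand), a repressor known for holding cells in the epithelial state, was the factor called higher with both isoforms. Its values were 94.5, 101.6 and 119.5 in deltaNp63beta libraries, 65.7, 81.7 and 74.5 in deltaNp63alpha libraries, and 33.7, 32.9 and 38.1 in vector libraries. The 3 groups did not overlap. OVOL2 was higher with deltaNp63beta than with vector by 1.56 ± 0.19 (limma adjusted p = 5.56e-05), and higher with deltaNp63alpha than with vector by 1.06 ± 0.19 (limma adjusted p = 0.00295). The difference between deltaNp63beta and deltaNp63alpha, 0.50 ± 0.19, did not pass (limma adjusted p = 0.0629; 95% interval 0.09 to 0.91), and it passed without the mean-variance trend and robust moderation (limma adjusted p = 0.0164). SNX5, which overlaps OVOL2 on the same strand and encodes a sorting nexin, had means of 3728 with deltaNp63beta, 3540 with deltaNp63alpha and 2982 with vector. Like OVOL2, SNX5 was called higher than with vector with both isoforms. Its change was 0.32 ± 0.05 with deltaNp63beta (limma adjusted p = 0.000454) and 0.25 ± 0.05 with deltaNp63alpha (limma adjusted p = 0.00782). MGME1, on the opposite strand, had means of 1171 with deltaNp63beta, 1452 with deltaNp63alpha and 1202 with vector. Against vector it was called higher with deltaNp63alpha, by 0.27 ± 0.06 (limma adjusted p = 0.00924), and not called with deltaNp63beta (limma adjusted p = 0.644). Whether fragments of these genes entered the OVOL2 values was not tested.

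OVOL1 (ENSG00000172818, chromosome 11, 65787022 to 65797219, plus strand), the repressor related to OVOL2 that is known for its role in the exit of epidermal progenitors from the cell cycle in mice, was low and uneven. It was at 7.38, 31.7 and 18.6 in deltaNp63beta libraries, at 0, 10.3 and 2.98 in deltaNp63alpha libraries, and at 1.36, 1.31 and 3.01 in vector libraries. Every deltaNp63beta library exceeded every vector library, and deltaNp63alpha libraries overlapped both other groups. The change with deltaNp63beta against vector was 2.65 ± 0.91 (limma adjusted p = 0.0362; 95% interval 0.65 to 4.64), and it was not called without vector replicate 1, 2 or 3 (limma adjusted p = 0.0817, 0.0876 and 0.0531). OVOL1 could not be tested without deltaNp63alpha replicate 2 or without deltaNp63beta replicate 2 or 3, since the filter then failed. The change was 0.34 ± 0.91 with deltaNp63alpha against vector (limma adjusted p = 0.856) and 2.30 ± 0.91 with deltaNp63beta against deltaNp63alpha (limma adjusted p = 0.0743; 95% interval 0.31 to 4.29). On the opposite strand 2 genes overlap OVOL1 in the annotation, and neither was analysed here.

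ELF3 (ENSG00000163435, chromosome 1, 202007945 to 202017188, plus strand), an epithelium-specific ETS factor, was called higher with one isoform and lower with the other. Its values were 67.2, 77.3 and 73.3 in deltaNp63beta libraries, 5.88, 7.36 and 11.5 in deltaNp63alpha libraries, and 25.8, 21.3 and 15.5 in vector libraries. The groups did not overlap, with vector between the isoforms. ELF3 was higher with deltaNp63beta than with vector by 1.78 ± 0.33 (limma adjusted p = 0.00127) and lower with deltaNp63alpha than with vector, at -1.26 ± 0.33 (limma adjusted p = 0.0264; 95% interval -1.99 to -0.53). The difference between deltaNp63beta and deltaNp63alpha was 3.04 ± 0.33 (limma adjusted p = 4.49e-05). The call for deltaNp63alpha against vector was lost without deltaNp63alpha replicate 1 or 2 or vector replicate 1 or 2 (limma adjusted p = 0.0776, 0.0712, 0.0914 and 0.0745), and the direction stayed the same in each. It was also lost with only the 2 groups compared (limma adjusted p = 0.0901) and with the replicate block (limma adjusted p = 0.0581). An antisense gene and another gene on the same strand overlap ELF3 in the annotation, and neither was analysed here.

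EHF (ENSG00000135373, chromosome 11, 34621093 to 34661057, plus strand), the related ETS factor, known in airway, mammary and epidermal epithelia, was at 503.5, 616.1 and 616.5 in deltaNp63beta libraries. It was at 72.1, 54.2 and 62.6 in deltaNp63alpha libraries and at 29.3, 64.1 and 46.1 in vector libraries. The deltaNp63beta libraries lay apart from the rest, and the deltaNp63alpha and vector libraries overlapped. The mean with deltaNp63beta, 578.7 ± 65.1, was 12.4 times the mean with vector, 46.5 ± 17.4 (SD, n = 3 each). EHF was higher with deltaNp63beta than with vector by 3.67 ± 0.25 (limma adjusted p = 5.41e-07) and than with deltaNp63alpha by 3.18 ± 0.25 (limma adjusted p = 3.37e-06). With deltaNp63alpha against vector the change was 0.49 ± 0.25 (limma adjusted p = 0.234; 95% interval -0.06 to 1.03).

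ZNF750 (ENSG00000141579, chromosome 17, 82829435 to 82840578, minus strand), a zinc finger factor that is a known p63 target in human keratinocytes and acts through KLF4 in terminal differentiation, was detected at 70.6, 28.2 and 39.7 in deltaNp63beta libraries. It was at 1.67, 0 and 3.45 in deltaNp63alpha libraries and at 6.21, 0.805 and 0.754 in vector libraries. Only the 3 deltaNp63beta libraries reached 10, so the gene passed the filter through the group in which it was high. The change was 3.96 ± 0.79 for deltaNp63beta against vector (limma adjusted p = 0.00195; 95% interval 2.22 to 5.69) and 4.27 ± 0.79 for deltaNp63beta against deltaNp63alpha (limma adjusted p = 0.00167). For deltaNp63alpha against vector it was -0.31 ± 0.79 (limma adjusted p = 0.849; 95% interval -2.05 to 1.42). ZNF750 could not be tested without any 1 deltaNp63beta library. Without vector replicate 1, the vector library with the most ZNF750, the change for deltaNp63beta against vector was 4.63, and without deltaNp63alpha replicate 2 the difference between deltaNp63beta and deltaNp63alpha was 3.67. ZNF750 lies within TBCD on the opposite strand, and TBCD, a tubulin-folding cofactor, had means of 2170 with deltaNp63beta, 2012 with deltaNp63alpha and 2151 with vector, with no call against vector.

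TFAP2A (ENSG00000137203, chromosome 6, 10393186 to 10419659, minus strand), the AP-2alpha factor of ectoderm and mammary epithelium, was abundant in all 3 groups and, of the 8 tested factors, changed least with deltaNp63beta. Its values were 2641, 2851 and 2990.05 in deltaNp63beta libraries, 2338, 2239.85 and 2211 in deltaNp63alpha libraries, and 2048, 1930.1 and 2135 in vector libraries. No pair of groups overlapped. TFAP2A was higher with deltaNp63beta than with vector by 0.47 ± 0.06 (limma adjusted p = 6.7e-05), a ratio of means of 1.39, and than with deltaNp63alpha by 0.32 ± 0.06 (limma adjusted p = 0.00156). For deltaNp63alpha against vector it was 0.15 ± 0.06 (limma adjusted p = 0.114; 95% interval 0.02 to 0.28). The annotation has 2 antisense genes that overlap TFAP2A, and neither was analysed here.

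**Figure D3:**
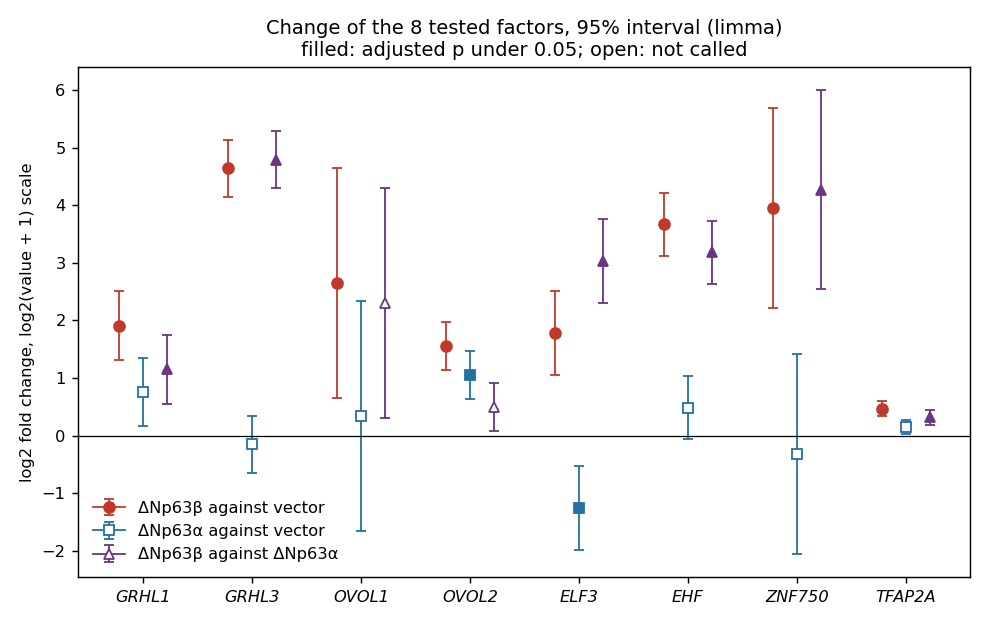
Log2 fold change, on the log2(value + 1) scale, of the 8 tested factors with 95% limma intervals, for deltaNp63beta against vector (circles), deltaNp63alpha against vector (squares) and deltaNp63beta against deltaNp63alpha (triangles). Filled symbols passed the test and open ones did not: every circle is filled and above 0, and among the squares OVOL2 is filled above 0 and ELF3 filled below 0.

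Levels of different genes were compared per kilobase of median protein-coding transcript, as group means. With deltaNp63beta the order was TFAP2A at 2865 per kb, EHF at 627.6, GRHL3 at 353.2, OVOL2 at 67.6, GRHL1 at 39.0, ELF3 at 27.8, ZNF750 at 17.7, OVOL1 at 7.99 and GRHL2 at 1.21 per kb. With deltaNp63alpha the level of TFAP2A was 2293 per kb, that of EHF 68.3, of OVOL2 47.6, of GRHL1 17.5, of GRHL3 12.3, of ELF3 3.16, of OVOL1 1.84, of ZNF750 0.653 and of GRHL2 0.242 per kb. Vector cells had TFAP2A at 2064 per kb, EHF at 50.4, OVOL2 at 22.4, GRHL3 at 13.9, GRHL1 at 9.93, ELF3 at 7.98, GRHL2 at 1.22, ZNF750 at 0.991 and OVOL1 at 0.788 per kb. By this measure TFAP2A led and EHF came next in all 3 groups, while GRHL3 stood above OVOL2 with deltaNp63beta and below it with deltaNp63alpha and with vector. Neighbours whose libraries overlapped were ELF3 with ZNF750 and ZNF750 with OVOL1 in the deltaNp63beta group. In the deltaNp63alpha group they were GRHL1 with GRHL3, ELF3 with OVOL1, OVOL1 with ZNF750 and ZNF750 with GRHL2, and in the vector group GRHL1 with ELF3, GRHL2 with ZNF750 and ZNF750 with OVOL1. With the longest transcript in place of the median one, EHF changed places with GRHL3 in the deltaNp63beta group and with OVOL2 in the deltaNp63alpha and vector groups.

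For each tested factor the genes with the most similar profile over the 9 libraries were sought, among genes with a mean value of at least 50, as the root mean square difference of log2(value + 1) after centring each gene. For GRHL3 these were AKR1B10, an aldo-keto reductase, at 0.33, and CLDN1, the tight junction protein claudin-1, at 0.49. CLDN1 had means of 2752 with deltaNp63beta, 190.1 with deltaNp63alpha and 202.0 with vector, and it was also the nearest gene to ZNF750, at 0.79, before S100P, a calcium-binding protein, at 0.81. EHF was nearest to PI3, the elastase inhibitor elafin, at 0.36, with means of 1379 with deltaNp63beta, 171.4 with deltaNp63alpha and 93.9 with vector. The next for EHF was SAA2, a serum amyloid A gene with a near-identical neighbour, at 0.38. Nearest to ELF3 were NUP210, a nucleoporin, at 0.46, and IL32, a cytokine, at 0.49. Both of these had the same order as ELF3, since NUP210 had means of 984.7 with deltaNp63beta, 201.8 with deltaNp63alpha and 344.1 with vector, and IL32 had 801.3 with deltaNp63beta, 173.9 with deltaNp63alpha and 276.4 with vector. NUP210 was lower with deltaNp63alpha than with vector by -0.79 ± 0.14 (limma adjusted p = 0.00272), and IL32 by -0.67 ± 0.12 (limma adjusted p = 0.00346). GRHL1 was nearest to ASNS, asparagine synthetase, at 0.16, and CLMN, calmin, at 0.18. OVOL2 was nearest to TAGLN, the actin-binding protein transgelin, at 0.11, and CKMT1A, a mitochondrial creatine kinase with a near-identical copy, at 0.12. TAGLN had means of 2732 with deltaNp63beta, 1855 with deltaNp63alpha and 882.6 with vector. OVOL1 was nearest to ABCG1 at 0.83 and MFAP5 at 0.92, and TFAP2A was nearest to CD109 and YEATS4, both at 0.05. Genes with large changes have large differences in this measure, so the values rank genes for 1 factor and do not compare factors.

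Other genes of the same families were called in both directions. The list held 13 of them, the CP2 branch of the grainyhead family, further ETS genes, OVOL3 and the other AP-2 genes, of which 7 were tested. With deltaNp63beta against vector 2 were higher and 1 lower with a median change of 0.14, and with deltaNp63alpha 0 were higher and 1 lower with a median of -0.01. The 3 of 7 called with deltaNp63beta stand beside 41.3% of all genes tested. TFCP2L1, a CP2 factor of ductal epithelia and pluripotent cells, was at 2554, 2747 and 2821 in deltaNp63beta libraries, 1711, 1455 and 1500 in deltaNp63alpha libraries, and 2191, 2145 and 2033 in vector libraries. Like ELF3 it passed in opposite directions, higher with deltaNp63beta than with vector by 0.35 ± 0.07 (limma adjusted p = 0.0016) and lower with deltaNp63alpha, at -0.45 ± 0.07 (limma adjusted p = 0.000965). The difference of deltaNp63beta from deltaNp63alpha was 0.80 ± 0.07 (limma adjusted p = 6e-06). UBP1, another CP2 factor, was lower with deltaNp63beta than with vector, at -0.30 ± 0.07 (limma adjusted p = 0.0041). ELF2 was higher by 0.29 ± 0.09 (limma adjusted p = 0.0259), a call lost without deltaNp63beta replicate 1 or 3 or vector replicate 1 (limma adjusted p = 0.0874, 0.0704 and 0.1). Between the isoforms TFCP2L1 was higher and UBP1 lower with deltaNp63beta than with deltaNp63alpha, and UBP1, at -0.19 (limma adjusted p = 0.0499), lost its call in 7 of the 9 fits that each left out 1 library. TFCP2 and ELF4 were not called against vector. ELF5 and TFAP2D were listed at 0 in all 9 libraries, SPDEF, OVOL3 and TFAP2B reached at most 2.77, and TFAP2E reached 14.0.

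Genes described elsewhere as targets of grainyhead-like factors, mostly junction proteins, surface proteases and their inhibitors, were higher with both isoforms in the main. Of 28 such genes 26 were tested, and with deltaNp63beta 21 were higher and 2 lower than with vector, with a median change of 1.53. With deltaNp63alpha 18 were higher and 1 lower than with vector, with a median of 0.58. Between the isoforms 16 were higher and 1 lower with deltaNp63beta than with deltaNp63alpha, with a median of 0.56. Over all genes tested, 21.8% were called higher with deltaNp63beta and 8.13% with deltaNp63alpha against vector, and 17.4% with deltaNp63beta against deltaNp63alpha. MAL2, a protein of apical transport, had means of 11337 with deltaNp63beta, 3402 with deltaNp63alpha and 1569 with vector, and changed by 2.85 ± 0.05 with deltaNp63beta and 1.12 ± 0.05 with deltaNp63alpha against vector. LAD1, ladinin-1 of the basement membrane zone, changed by 2.29 ± 0.06 with deltaNp63beta and 1.91 ± 0.06 with deltaNp63alpha. ST14, the membrane protease matriptase, was higher with deltaNp63beta by 2.34 ± 0.06. ESRP1, an epithelial splicing factor, was higher by 1.88 ± 0.06 with deltaNp63beta and by 0.96 ± 0.06 with deltaNp63alpha, and SPINT2, a protease inhibitor, by 0.67 ± 0.04 with deltaNp63alpha. CDH1, the gene of E-cadherin, chosen after its values were seen, was at 3898, 4256 and 4309 in deltaNp63beta libraries, 1367, 1294 and 1177 in deltaNp63alpha libraries, and 652.4, 466.9 and 504.7 in vector libraries. Those 3 ranges were apart, with changes of 2.95 ± 0.11 for deltaNp63beta and 1.25 ± 0.11 for deltaNp63alpha against vector. Each of these changes had a limma adjusted p under 0.05. RAB15, an endosomal GTPase, was lower with deltaNp63beta than with vector, at -0.88 ± 0.19 (limma adjusted p = 0.00368), and lower than with deltaNp63alpha, at -1.10 ± 0.19 (limma adjusted p = 0.00127). PROM2, prominin-2, was lower with deltaNp63beta, at -0.99 ± 0.36 (limma adjusted p = 0.0452), and with deltaNp63alpha, at -1.32 ± 0.36 (limma adjusted p = 0.0296). Without vector replicate 2 or 3 PROM2 was not called with deltaNp63beta (limma adjusted p = 0.135 and 0.152) or with deltaNp63alpha (limma adjusted p = 0.101 and 0.111). It was not called either without deltaNp63beta replicate 1 or 2 or deltaNp63alpha replicate 1 for deltaNp63beta against vector (limma adjusted p = 0.136, 0.147 and 0.0562), or without deltaNp63alpha replicate 1 or 3 for deltaNp63alpha against vector (limma adjusted p = 0.0941 and 0.11).

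Transcription factors of the mesenchymal state, which OVOL and grainyhead-like proteins are known to oppose, were lower where they passed. Of 10 genes 9 were tested, and with deltaNp63beta 0 were higher and 7 lower than with vector, with a median change of -1.41. With deltaNp63alpha 0 were higher and 4 lower than with vector, with a median of -0.72, and 0 were higher and 4 lower with deltaNp63beta than with deltaNp63alpha, with a median of -0.51. Over all genes tested, 19.5% were called lower with deltaNp63beta and 6.37% with deltaNp63alpha against vector, and 15.5% with deltaNp63beta against deltaNp63alpha. SNAI3 was at 16.6, 15.5 and 14.5 in vector libraries and elsewhere reached 10 only in deltaNp63alpha replicate 2, at 10.4. It thus passed the filter through libraries in which it was high, and these counts and medians are a description only. With a minimum of 50 in 3 libraries, 7 were tested. Then 5 were lower with deltaNp63beta than with vector, median -0.84, and 4 with deltaNp63alpha, median -0.38. ZEB1, a repressor of CDH1, was at 160.4, 197.0 and 202.4 in deltaNp63beta libraries, 291.5, 211.3 and 300.03 in deltaNp63alpha libraries, and 491.9, 489.0 and 503.2 in vector libraries. All vector libraries lay above the other 6. ZEB1 was lower with deltaNp63beta than with vector, at -1.41 ± 0.14 (limma adjusted p = 1.6e-05), and lower with deltaNp63alpha, at -0.90 ± 0.14 (limma adjusted p = 0.00149). The difference of deltaNp63beta from deltaNp63alpha, -0.51 (limma adjusted p = 0.0192), lost its call on leaving out deltaNp63alpha replicate 1, deltaNp63alpha replicate 3 or deltaNp63beta replicate 1 (limma adjusted p = 0.0696, 0.0786 and 0.0664). ZEB2, the related repressor, was at 60.5, 93.6 and 92.1 in deltaNp63beta libraries, 210.0, 181.5 and 185.1 in deltaNp63alpha libraries, and 524.3, 482.6 and 355.4 in vector libraries. Its changes against vector were -2.46 ± 0.19 with deltaNp63beta and -1.22 ± 0.19 with deltaNp63alpha (limma adjusted p = 1.93e-06 and 0.00143). SNAI2, known as both an EMT factor and a gene of basal mammary cells, was at 1589, 1541 and 1429 in deltaNp63beta libraries, 2754, 3025 and 3126 in deltaNp63alpha libraries, and 2612, 2713 and 2844 in vector libraries. It was lower with deltaNp63beta than with vector, at -0.84 ± 0.06 (limma adjusted p = 1.14e-06), and lower than with deltaNp63alpha, at -0.96 ± 0.06 (limma adjusted p = 7.65e-07). With deltaNp63alpha against vector its change was 0.12 ± 0.06 (limma adjusted p = 0.232). FOXC2, a forkhead factor, changed by -1.53 ± 0.11 with deltaNp63beta and -0.72 ± 0.11 with deltaNp63alpha. TWIST2 was lower with deltaNp63alpha than with vector, at -0.38 ± 0.10 (limma adjusted p = 0.0312), and this call was lost without any 1 deltaNp63alpha library or without vector replicate 1 or 2 (limma adjusted p = 0.0913, 0.0731, 0.0643, 0.112 and 0.0801).

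**Figure D4:**
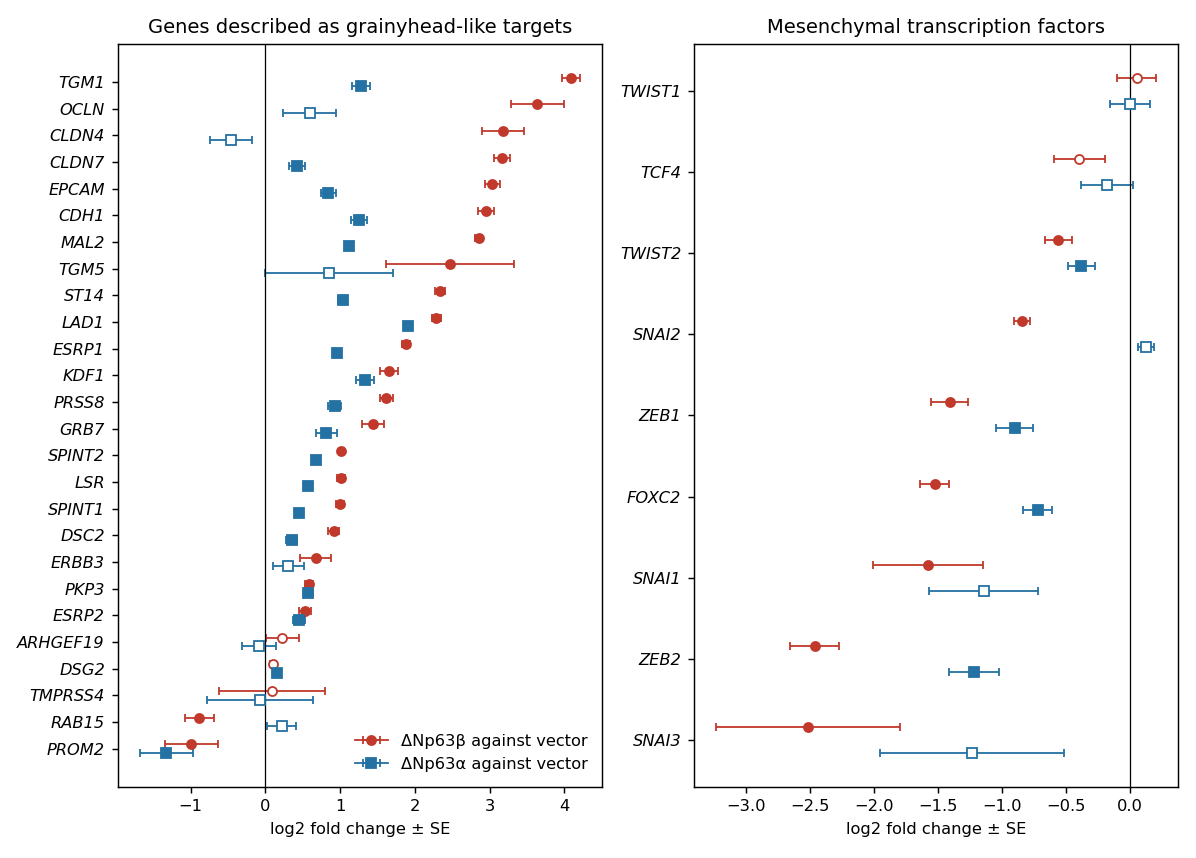
Log2 fold change ± SE against vector of the 26 tested genes described as grainyhead-like targets (left) and of the 9 tested mesenchymal transcription factors (right), with deltaNp63beta as circles and deltaNp63alpha as squares, filled where limma adjusted p was under 0.05. Most targets lie right of 0, RAB15 and PROM2 lie left of it with deltaNp63beta, and no filled symbol of a mesenchymal factor lies right of 0.

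The fibroblast markers moved in both directions. Of 7 fibroblast markers, 6 reached a value of 10 in some library, and their summed value was 1031 to 1073 in deltaNp63beta libraries, 1113 to 1352 in deltaNp63alpha libraries, and 2279 to 2395 in vector libraries. DCN, decorin, made the largest part of that gap, with means of 165.9 with deltaNp63beta, 349.6 with deltaNp63alpha and 1211 with vector, while COL3A1 reached at most 3.08. Of the 5 tested, 1 was higher and 2 were lower with deltaNp63beta than with vector, where 41.3% of all genes were called. With deltaNp63alpha 0 were higher and 2 lower than with vector, where 14.5% of all genes were called. The lower ones were DCN and FAP, which had means of 520.4 with deltaNp63beta, 620.1 with deltaNp63alpha and 852.3 with vector. COL1A1, a collagen chain, was higher with deltaNp63beta than with vector by 0.52 ± 0.17 (limma adjusted p = 0.0286), with means of 340.1 with deltaNp63beta, 202.6 with deltaNp63alpha and 236.4 with vector. The summed value of the 8 basal epithelial markers was 376777 to 385677 in deltaNp63beta libraries, 292789 to 309222 in deltaNp63alpha libraries, and 199111 to 205830 in vector libraries. Of 7 leukocyte markers 3 reached 10, with sums of 230.2 to 286.7 in deltaNp63beta libraries, 159.4 to 219.8 in deltaNp63alpha libraries, and 163.4 to 182.2 in vector libraries. Of these CD14, a coreceptor for bacterial lipopolysaccharide, had means of 170.3 with deltaNp63beta, 19.1 with deltaNp63alpha and 23.6 with vector, and was higher with deltaNp63beta than with vector by 2.77 ± 0.41 (limma adjusted p = 0.000277). CSF1R, the receptor of a macrophage growth factor, was lower with deltaNp63beta than with vector, at -0.91 ± 0.24 (limma adjusted p = 0.011). Of 5 endothelial markers 4 reached 10, with sums of 110.3 to 140.5 in deltaNp63beta libraries, 166.4 to 171.7 in deltaNp63alpha libraries, and 203.7 to 274.8 in vector libraries, and CDH5 reached at most 1.84. The 8 luminal markers summed to 14493 to 15815 in deltaNp63beta libraries, 12118 to 13014 in deltaNp63alpha libraries, and 12827 to 13011 in vector libraries. The 6 melanocyte markers summed to 342.7 to 392.4 in deltaNp63beta libraries, 274.7 to 405.3 in deltaNp63alpha libraries, and 285.2 to 350.05 in vector libraries. The part of these markers in the results was not tested.

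Genes tied to ZNF750 and its partner KLF4, a list of partners, cofactors and late differentiation genes, did not move one way. Of 18, 13 were tested, with 6 higher and 3 lower for deltaNp63beta against vector (median 0.09), 3 higher and 1 lower for deltaNp63alpha against vector (median -0.16), and 4 higher and 2 lower for deltaNp63beta against deltaNp63alpha (median 0.12). Over all genes tested, 41.3%, 14.5% and 32.9% were called in these 3 comparisons. SPRR1B, SPRR2A and SPRR2D reached 10 only in the 3 deltaNp63beta libraries, so they passed the filter through the group in which they were high. Without any 1 deltaNp63beta library they could not be tested, and 3 of 10 were higher and 3 lower for deltaNp63beta against vector. Over all fits that left out 1 library, the median of that comparison ran from -0.13 to 0.35. SPRR1B, a cornified envelope precursor with close relatives among the SPRR genes, was at 109.1, 113.6 and 86.5 in deltaNp63beta libraries, 6.92, 5.72 and 4.09 in deltaNp63alpha libraries, and 2.73, 1.10 and 1.03 in vector libraries. It was higher with deltaNp63beta than with vector by 5.36 ± 0.44 (limma adjusted p = 2.57e-06), and its change with deltaNp63alpha was 1.36 ± 0.44 (limma adjusted p = 0.061). SPINK5, a protease inhibitor of the epidermal barrier, was higher with both isoforms, by 3.24 ± 0.26 with deltaNp63beta and 2.91 ± 0.26 with deltaNp63alpha against vector. Involucrin, IVL, was higher with deltaNp63alpha by 0.97 ± 0.25 (limma adjusted p = 0.0256), a call lost without deltaNp63alpha replicate 1 or 2 or vector replicate 1 or 3 (limma adjusted p = 0.0732, 0.0965, 0.0514 and 0.0852). With deltaNp63beta IVL was also called higher than with vector, by 1.09, and that call was lost only in the test against a 1.5-fold change. KLF4 itself was at 154.6, 176.9 and 197.5 in deltaNp63beta libraries, 262.4, 246.5 and 248.5 in deltaNp63alpha libraries, and 282.8, 235.6 and 333.8 in vector libraries. It was lower with deltaNp63beta than with vector, at -0.68 ± 0.14 (limma adjusted p = 0.00279), while ZNF750 was higher. ALOXE3, an epidermal lipoxygenase, was lower with deltaNp63beta as well, at -0.90 ± 0.18 (limma adjusted p = 0.00214). Among the corepressors that bind ZNF750, CTBP2 was higher with deltaNp63beta by 0.42 ± 0.04 and with deltaNp63alpha by 0.24 ± 0.04, and RCOR1 was lower, at -0.28 ± 0.05 with deltaNp63beta and -0.23 ± 0.05 with deltaNp63alpha. LOR, SPRR1A, SPRR3, CRCT1 and CALML5 did not pass the filter and reached at most 5.11.

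Among 19 other epithelial differentiation factors, 14 were tested, and calls against vector went both ways. With deltaNp63beta 3 were higher and 2 lower (median -0.04), with deltaNp63alpha 4 were higher and 1 lower (median -0.06), and between the isoforms 5 were higher and 3 lower with deltaNp63beta than with deltaNp63alpha (median 0.29). The shares of all genes called were 41.3% with deltaNp63beta and 14.5% with deltaNp63alpha against vector, and 32.9% between the isoforms. CASZ1, a zinc finger factor, was higher with both, by 1.23 ± 0.10 with deltaNp63beta and 0.47 ± 0.10 with deltaNp63alpha. KLF5 was higher with deltaNp63beta by 0.70 ± 0.05 (limma adjusted p = 6.6e-07), and its change with deltaNp63alpha was -0.08 (limma adjusted p = 0.359). PPARD, a lipid-sensing nuclear receptor, was higher with deltaNp63alpha by 0.62 ± 0.08 (limma adjusted p = 0.000284). With deltaNp63beta it was lower than with vector, at -0.23 ± 0.08 (limma adjusted p = 0.0358), and not called on leaving out any 1 deltaNp63beta or vector library (limma adjusted p between 0.0531 and 0.124).

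Of 7 cofactors of AP-2 proteins, all tested, 1 was higher and 2 were lower with deltaNp63beta than with vector (median -0.03), and 2 were higher and 3 lower with deltaNp63alpha (median 0.06). Between the isoforms 1 was higher and 2 were lower with deltaNp63beta than with deltaNp63alpha (median 0.11). These counts stand beside 41.3% of all genes called with deltaNp63beta and 14.5% with deltaNp63alpha against vector, and 32.9% between the isoforms. KCTD1, which inhibits AP-2 activity, was higher with deltaNp63beta by 0.79 ± 0.08 (limma adjusted p = 1.75e-05), and CITED2, an AP-2 coactivator, was lower, at -0.79 ± 0.10 (limma adjusted p = 6.13e-05). CITED4 was higher with deltaNp63alpha than with vector by 0.48 ± 0.10 (limma adjusted p = 0.0056), with a change of -0.03 with deltaNp63beta (limma adjusted p = 0.824). CREBBP, a histone acetyltransferase, was lower with deltaNp63beta, at -0.55 ± 0.13 (limma adjusted p = 0.00602), and changed by -0.52 with deltaNp63alpha (limma adjusted p = 0.0224). With deltaNp63alpha, the calls of KCTD1, CITED2, CREBBP and EP300 were each lost on leaving out 1 of certain libraries. The call of KCTD1 needed deltaNp63alpha replicate 2 (limma adjusted p = 0.0551 without it), and that of CITED2 needed deltaNp63alpha replicate 3 and vector replicates 1 and 3 (limma adjusted p = 0.0847, 0.074 and 0.0636). For CREBBP the libraries were deltaNp63alpha replicates 1 and 2 and vector replicate 1 (limma adjusted p = 0.06, 0.0828 and 0.051). EP300, at -0.50 with deltaNp63alpha (limma adjusted p = 0.024), depended in the same way on deltaNp63alpha replicates 2 and 3 and vector replicate 1 (limma adjusted p = 0.0617, 0.0863 and 0.0854).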

How the data were processed

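RNA was measured in 9 MCF10A libraries, 3 per group. Each deposited signal value is a normalized estimated count per gene, which the authors obtained from kallisto 0.46.2 and DESeq2 with GRCh38, per the submitters' processing notes. The step that gave the numbers is not stated there. DESeq2's version is not given in the sources used here. The strand setting is not given either, and whether fragments of overlapping genes were told apart was not tested. Each file held 41857 gene IDs, of which 36387 matched a symbol and 15915 were at 0 throughout. Positions and transcript lengths came from GENCODE 29.

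The values are not counts: between 59.9% and 63.4% of values up to 20 steps of the low values were whole within 0.1 step. The main test was limma 3.58.1 (R 4.3.3, trend and robust options on), run on log2(value + 1) of the 15108 genes that reached 10 in 3 or more libraries. A single model with a mean for each group was fitted to all 9 libraries, without a block, and p-values were adjusted by Benjamini-Hochberg with a threshold of 0.05. The pseudocount makes changes of low genes smaller than the ratio of their means. No interval for counting error was computed, and over all genes tested the SE of a change had a median of 0.109.

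The 9 factors and the 12 other gene lists, 145 entries in all and each matched, were chosen with earlier results of these data known. From each list up to 4 genes with the smallest adjusted p per comparison with vector are named, with genes that moved against the rest where they were 5 or fewer, the 2 nearest profiles of each factor, and TP63. Some genes that this rule picks are not reported here. Alternatives were 2 other scalings, 2 other filters, 2 other pseudocounts, a replicate block, fits of 2 groups alone, limma's treat against 1.5-fold, no trend or robust options, and leaving out each library. Tables were read with pandas 2.3.3 and numpy 2.4.6 under Python 3.11.15, and plots drawn with matplotlib 3.10.9.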

Additional observations from a re-analysis of the deposited data

Results flagged for a closer look

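ELF3 differed between the isoforms by a test of the difference itself, 3.04 on the log2 scale for deltaNp63beta against deltaNp63alpha, and it passed in opposite directions against the shared vector libraries. The mean was 72.6 ± 5.13 with deltaNp63beta and 8.24 ± 2.91 with deltaNp63alpha, against 20.9 ± 5.12 with vector (SD, n = 3 each). The call for deltaNp63alpha against vector was lost under 7 of the 19 alternatives run, among them the replicate block (limma adjusted p = 0.0581) and only the 2 groups compared (limma adjusted p = 0.0901). The difference between the isoforms was called under all 19 alternatives run, between 2.57 and 3.28.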

How the results depend on the processing

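Of the 177 changes of single genes, 3149 of 3327 values under alternatives kept their direction and their side of the threshold, 155 lost and 4 gained a call and 19 turned round. The alternatives for list counts and for genes other than the 9 factors were chosen after seeing the data. A test against a 1.5-fold change left 903 genes called for deltaNp63beta against vector, 181 for deltaNp63alpha against vector and 418 for deltaNp63beta against deltaNp63alpha. It left 0 factors called for deltaNp63alpha against vector, and for the other comparisons it lost TFAP2A (both), OVOL1 (vector) and GRHL1 (deltaNp63alpha). For deltaNp63beta against vector it left 0 family relatives, 3 genes tied to ZNF750, 2 other differentiation factors, 4 mesenchymal factors and 0 AP-2 cofactors called. For deltaNp63alpha against vector it left 0 family relatives, 7 grainyhead-like targets, 1 gene tied to ZNF750, 2 other differentiation factors, 0 mesenchymal factors and 0 AP-2 cofactors. For deltaNp63beta against deltaNp63alpha it left 0 family relatives, 9 targets, 3 genes tied to ZNF750, 3 other differentiation factors, 1 mesenchymal factor and 0 AP-2 cofactors. Without trend and robust moderation 2 AP-2 cofactors were called for deltaNp63alpha against vector. Family relatives called between the isoforms fell to 1 without a filter, with a pseudocount of 0.1, with only the 2 groups compared and without trend and robust moderation.

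For deltaNp63alpha against vector, the number of factors called was 1 with only the 2 groups compared and 1 with the replicate block, ELF3 being lost (limma adjusted p = 0.0901 and 0.0581). With the replicate block 5939 genes were called for deltaNp63beta against vector, 1833 for deltaNp63alpha against vector and 4583 between the isoforms. The replicate numbers were not taken as pairs: the residual correlation was -0.12 to 0.08 for equal numbers, against -0.14 to 0.12 for unequal ones.

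Leaving out 1 library at a time, the factors called for deltaNp63alpha against vector numbered 1 to 2, the AP-2 cofactors 2 to 5 of 7, the family relatives between the isoforms 1 to 2, and the genes tied to ZNF750 between the isoforms 2 to 6. OVOL1 was not called for deltaNp63beta against vector with a pseudocount of 0.1 (limma adjusted p = 0.126). OVOL1 and ZNF750 could not be tested with a minimum of 50. The turned values belonged to uncalled changes. With a pseudocount of 0.1, OVOL1 was at -0.34 for deltaNp63alpha against vector, and with equal totals TFCP2 was at -0.032 for deltaNp63beta against vector. Leaving out 1 library at a time, changes for deltaNp63alpha against vector ran from -0.29 to 0.070 for GRHL3, -0.80 to 0.36 for ZNF750, -0.017 to 0.081 for ELF4, -0.25 to 0.043 for AKR1B10 and -0.29 to 0.17 for MFAP5. For deltaNp63beta against vector they ran from -0.042 to 0.048 for TFCP2 and -0.069 to 0.024 for CITED4, and between the isoforms from -0.0075 to 0.21 for IVL and -0.084 to 0.022 for CREBBP. The causes were not tested. Values under about 10 rest on few fragments, which limits GRHL2, OVOL1 and ZNF750, and ELF3 in the deltaNp63alpha libraries.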
